A study of Mus musculus with 6 samples.

Results

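The taste transduction cascade of sweet and umami taste was followed as 9 genes among the 52636 gene rows of the count table. They were taken by name and were the receptor genes Tas1r1, Tas1r2 and Tas1r3, the gustducin subunit genes Gnat3, Gnb3 and Gng13, and Plcb2, Itpr3 and Trpm5, each of which matched exactly 1 row. Medullary thymic epithelial cells (mTEC) gave 3 tuft-like and 3 non-tuft-like RNA libraries, from cells sorted from thymi of C57BL/6 mice at 6 weeks of age. Both populations bound the lectin UEA, had low MHCII and were negative for Sca1 and CD63. For CD80 the labels give them as negative, and the study's text as low. The tuft-like cells were positive for both CD117, the receptor tyrosine kinase encoded by Kit, and CD66a, the adhesion molecule encoded by Ceacam1, and the non-tuft-like cells lacked both. Neither population carried a named transgene or treatment. The labels do not say whether libraries of a group came from different mice, so the p-values measure the spread between these libraries, which may be technical.

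In taste receptor cells of type II, the ligand binds a pair of class C receptors, Tas1r1 with Tas1r3 for umami and Tas1r2 with Tas1r3 for sweet. The receptor activates gustducin, whose beta-gamma dimer switches on phospholipase C beta 2. The IP3 that this enzyme makes opens the type 3 IP3 receptor in the endoplasmic reticulum, and the released calcium opens the cation channel Trpm5, which depolarises the cell. Tuft cells, chemosensory epithelial cells of the gut, airways and thymus, are known to use much of the same machinery.

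Gene counts summed to between 20097617 and 48369825 in a library. Levels are given as CPM, the counts of a library brought to a common total after scaling with TMM factors. A positive log2 fold change means a higher level in the tuft-like libraries. Differences were tested with edgeR's quasi-likelihood test over 32496 genes and called at an FDR (Benjamini-Hochberg adjusted p) under 0.05. A single value compared over 3 libraries against 3 cannot reach an exact permutation p below 0.10. The libraries differed in the reads that the counting assigned to no annotated feature. These made up 61.6%, 47.6% and 19.7% of the reads in tuft-like libraries 1, 2 and 3. In non-tuft-like libraries 1, 2 and 3 they made up 34.4%, 36.6% and 52.5%. Tuft-like libraries 1 and 3 lay at the extremes, so calls that were lost when a library was left out are named as such.

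The population labels were checked first against 12 tuft cell markers. All 12 rose in tuft-like mTEC, and their median log2 fold change was 4.65 beside 0.02 over all genes tested. The microtubule-associated kinase Dclk1 had 24.8, 23.8 and 36.9 CPM in non-tuft-like libraries 1 to 3 and 1270, 1644 and 1840 CPM in tuft-like libraries 1 to 3. Pou2f3, the transcription factor that tuft cells require, was also present in the non-tuft-like libraries at 125.5, 116.7 and 112.5 CPM, against 355.7, 513.5 and 706.6 CPM in the tuft-like libraries. Its call by edgeR was lost without non-tuft-like library 2 (FDR 0.0653). The markers summed to between 638.8 and 790.5 CPM in the non-tuft-like and between 9974 and 18563 CPM in the tuft-like libraries, with the actin-binding protein gene Avil the most abundant per kilobase of exon in both groups.

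Of the 8 cascade genes that passed the filter on low counts, 7 rose in tuft-like mTEC, none fell, and only Itpr3 did not differ at the threshold. Tas1r2 did not pass the filter. The median log2 fold change of the 8 genes was 3.63. Among all genes tested, 1.16% were called higher and 0.951% lower in tuft-like mTEC. These are 378 and 309 genes, which became 310 and 612 without tuft-like library 3, 222 and 154 without tuft-like library 2, and 220 and 159 without non-tuft-like library 2. All 3 tuft-like libraries exceeded all 3 non-tuft-like libraries in the 7 called genes, and such separation in this direction was seen for 7.18% of all genes tested. In bulk samples, fewer cells of a type and less RNA per cell cannot be told apart, which holds for each level below.

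**Figure D1:**
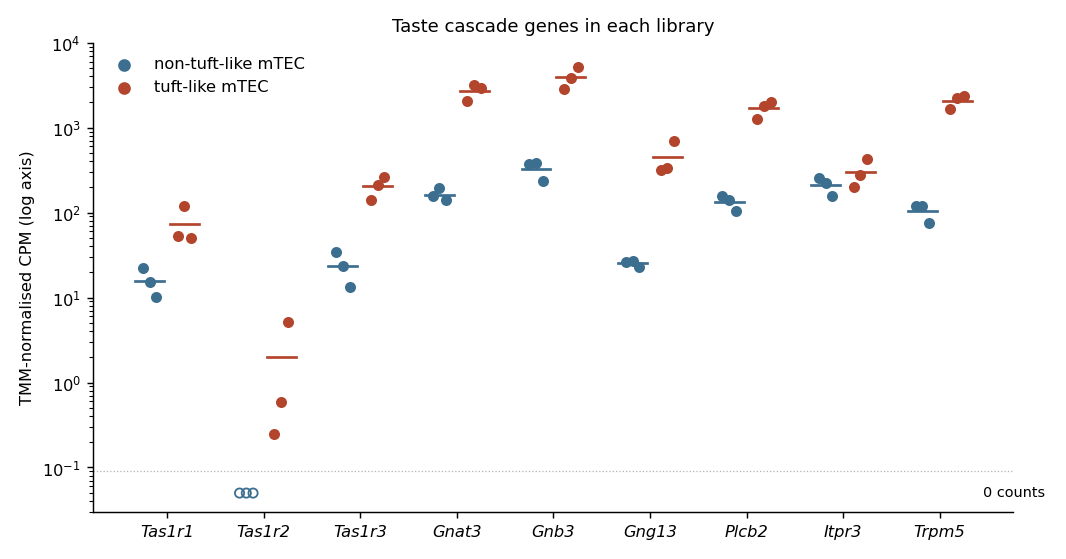
Level of each cascade gene in each library, as CPM on a log axis. Each point is 1 library of tuft-like or non-tuft-like mTEC and each bar the group mean. The groups are separate for the 7 called genes and overlap for Itpr3, and Tas1r2 had 0 counts in all 3 non-tuft-like libraries.

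The receptor subunits differed widely in abundance. Tas1r3 (ENSMUSG00000029072, mm10 chromosome 4, 155859268 to 155863362, minus strand) encodes the subunit shared by both receptors. Its level was 34.2, 23.5 and 13.2 CPM in non-tuft-like libraries 1 to 3 and 139.0, 209.4 and 265.5 CPM in tuft-like libraries 1 to 3. The lowest tuft-like library was thus well above the highest non-tuft-like library, and the mean rose from 23.7 ± 10.5 to 204.6 ± 63.4 CPM (SD, n = 3). The log2 fold change was 3.11 (SE 0.41), with an FDR of 0.00310 by edgeR's quasi-likelihood test, and lay between 2.80 and 3.45 when single libraries were left out.

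Tas1r1 (ENSMUSG00000028950, chromosome 4, 152027914 to 152038568, minus strand) encodes the umami partner. It reached 22.2, 15.2 and 10.1 CPM in the non-tuft-like and 53.1, 119.4 and 49.7 CPM in the tuft-like libraries. The groups did not overlap, but tuft-like library 2 was more than the other two tuft-like libraries together. The log2 fold change was 2.22 (SE 0.45), with an FDR of 0.0306 by edgeR. This call was lost without non-tuft-like library 2 (FDR 0.107), without non-tuft-like library 3 (FDR 0.0884) and without tuft-like library 2 (FDR 0.190), with log2 fold changes of 2.19, 1.96 and 1.69.

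Tas1r2 (ENSMUSG00000028738, chromosome 4, 139653538 to 139670280, plus strand), the sweet partner, was counted 0 times in all 3 non-tuft-like libraries and 6, 20 and 185 times in tuft-like libraries 1 to 3. Most of its reads therefore came from tuft-like library 3. In CPM the tuft-like values were 0.248, 0.585 and 5.11. Pooled over the group, the tuft-like level was 81.9-fold that of 3 counts over the non-tuft-like group, and 16.3-fold without tuft-like library 3. The tuft-like level entered without its error, so these ratios are not lower bounds. They allow for counting error in the non-tuft-like group alone, and reads that carry no molecular identifier need not be separate molecules. In the 5 alternative settings whose filter kept it, Tas1r2 had an FDR between 0.124 and 0.619 and was not called. Only tuft-like library 3 exceeded the 99th percentile of 1092 olfactory receptor genes, which served as a background of genes unlikely to be used in the thymus. Of its 3047 exonic bases, 1510 are shared on the same strand with the predicted gene Gm21969, which had between 3 and 24 counts per library, and reads in the shared part can be left uncounted as ambiguous.

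The 3 subunits of gustducin rose together. Gnat3 (ENSMUSG00000028777, chromosome 5, 17962549 to 18019834, plus strand) encodes the alpha subunit. Its level was 155.0, 195.8 and 139.0 CPM in the non-tuft-like and 2045, 3150 and 2953 CPM in the tuft-like libraries. The spread within either group was small beside the gap between them. The log2 fold change was 4.06 (SE 0.40), with an FDR of 0.000839 by edgeR's test.

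Gnb3 (ENSMUSG00000023439, chromosome 6, 124834240 to 124840275, minus strand) encodes the beta subunit and had the most reads of the 9 genes. It was counted at 369.7, 380.9 and 235.0 CPM in the non-tuft-like and at 2840, 3850 and 5129 CPM in the tuft-like libraries. The groups were again separate, with a log2 fold change of 3.58 (SE 0.45) and an FDR of 0.00211 by edgeR's test. Gng13 (ENSMUSG00000025739, chromosome 17, 25717171 to 25719406, plus strand) encodes the gamma subunit. Its non-tuft-like values of 26.03, 26.91 and 22.85 CPM were close to each other, while the tuft-like values were 315.2, 335.0 and 698.1 CPM. Tuft-like library 3 stood well above the other tuft-like libraries, and all 3 were far above the non-tuft-like libraries. The log2 fold change was 4.15 (SE 0.40), with an FDR of 0.000653 by edgeR, and lay between 3.65 and 4.36 when single libraries were left out. Of the 773 exonic bases of Gng13, 399 overlap the replication factor gene Chtf18 on the other strand. Chtf18 itself was low, with means of 12.05 and 9.11 CPM in the non-tuft-like and tuft-like libraries, and whether the counting used strand is not given in the sources used here.

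Downstream of gustducin, Plcb2 and Trpm5 rose and Itpr3 did not pass the test. Plcb2 (ENSMUSG00000040061, chromosome 2, 118707517 to 118728438, minus strand) encodes the phospholipase that makes IP3. It had 156.3, 139.6 and 103.2 CPM in the non-tuft-like and 1276, 1792 and 2010 CPM in the tuft-like libraries. The lowest tuft-like value was several times the highest non-tuft-like value, with a log2 fold change of 3.67 (SE 0.38) and an FDR of 0.000886 by edgeR's test.

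Itpr3 (ENSMUSG00000042644, chromosome 17, 27057304 to 27122223, plus strand) encodes the calcium release channel. It was already well expressed in non-tuft-like mTEC, at 252.6, 224.0 and 157.2 CPM, and reached 197.8, 277.8 and 428.6 CPM in tuft-like mTEC. The groups overlapped, since tuft-like library 1 lay below 2 non-tuft-like libraries. The means were 211.3 ± 48.9 and 301.4 ± 117.2 CPM (SD, n = 3), and the log2 fold change was 0.51 (SE 0.35), with an unadjusted p of 0.171 by edgeR. It was not called under any of the 15 alternatives, with an FDR of at least 0.418 in each by the tool used there.

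Trpm5 (ENSMUSG00000009246, chromosome 7, 143069153 to 143094642, minus strand) encodes the calcium-gated channel at the end of the cascade. It had 120.03, 118.32 and 75.71 CPM in the non-tuft-like and 1672, 2217 and 2340 CPM in the tuft-like libraries. Both groups were narrow, and the log2 fold change was 4.31 (SE 0.40), with an FDR of 0.000555 by edgeR's test. Its distance to the fold change of Gng13 was within these errors, and without tuft-like library 2 Gng13 (4.33) was above Trpm5 (4.26). Its exons share 220 bases with Tssc4 on the other strand, and Tssc4 had a log2 fold change of -0.09.

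The levels of different genes were compared per kilobase of exon, since longer transcripts collect more reads. In tuft-like mTEC Gnat3 came first at 1996 ± 433 CPM per kb, followed by Gnb3 at 1497 ± 436 and Gng13 at 581.4 ± 278.9 CPM per kb (SD, n = 3). Among 21896 protein-coding genes these levels ranked 9, 13 and 39. Trpm5 at 324.5 ± 55.6 CPM per kb and Plcb2 at 256.6 ± 57.1 CPM per kb (SD, n = 3) ranked 80 and 114. The receptor and calcium channel genes were far lower, with Tas1r3 at 58.08 ± 17.99, Itpr3 at 33.4 ± 13.0 and Tas1r1 at 25.9 ± 13.7 CPM per kb (SD, n = 3), at ranks 804, 1561 and 2099. Tas1r2 came last at 0.65 CPM per kb. The ranges over the 3 tuft-like libraries overlapped for the neighbours Gnat3 and Gnb3, Trpm5 and Plcb2, Tas1r3 and Itpr3, and Itpr3 and Tas1r1, and were separate for the other neighbours in this order. In non-tuft-like mTEC the same scale put Gnb3 at rank 294, Gnat3 at 310, Gng13 at 1573, Itpr3 at 2350, Plcb2 at 2713 and Trpm5 at 3400.

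Itpr3 held a different place within the cascade in each population. Per kilobase, the ratio of Itpr3 to Trpm5 was 1.49, 1.34 and 1.47 in non-tuft-like libraries 1 to 3 and 0.0839, 0.0889 and 0.130 in tuft-like libraries 1 to 3. A ratio within a library does not depend on how libraries are scaled, and the groups were far apart (exact two-sided permutation p = 0.10, the smallest possible). The ratio of Gnat3 to Trpm5 overlapped between the groups, with means of 6.12 ± 0.49 in tuft-like and 7.49 ± 1.30 in non-tuft-like libraries (SD, n = 3, exact permutation p = 0.20). The same held for Gng13 to Trpm5, with 1.76 ± 0.63 and 2.06 ± 0.38 (SD, n = 3, exact permutation p = 0.40). Plcb2 to Trpm5 was 1.24 ± 0.09 in non-tuft-like and 0.786 ± 0.046 in tuft-like libraries without overlap (SD, n = 3, exact permutation p = 0.10). The ratios of Gnb3, Tas1r3 and Tas1r1 to Trpm5 were also lower in all tuft-like than in all non-tuft-like libraries, with log2 differences of -0.75, -1.16 and -2.15 beside -3.86 for Itpr3 (exact permutation p = 0.10 each).

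Each cascade protein belongs to a family, so the share of the family's transcripts, counted per kilobase within a library, was computed next. Gnat3 made up 90.0%, 90.2% and 88.9% of the 16 G protein alpha subunit genes in tuft-like libraries 1 to 3, against 42.6%, 41.2% and 36.2% in non-tuft-like libraries 1 to 3. Next came the inhibitory subunits Gnai2, in all 3 tuft-like libraries and in non-tuft-like library 2, and Gnai3, in non-tuft-like libraries 1 and 3. Gnb3 took 95.7% ± 0.314 of the 5 beta subunit genes in tuft-like and 69.7% ± 2.25 in non-tuft-like mTEC (SD, n = 3), with Gnb1 next in both. This difference of 25.9 points was 40.9 points without division by exon length. Gng13 took 85.0% ± 3.03 of the 12 gamma subunit genes in tuft-like and 28.2% ± 1.41 in non-tuft-like mTEC (SD, n = 3). It led its family in the 3 tuft-like libraries, where Gng12 came next, and in non-tuft-like library 2, but was below Gng5 (34.6%) in non-tuft-like library 1 and below Gng12 (29.3%) in non-tuft-like library 3.

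The effectors went the same way apart from the IP3 receptor. Plcb2 made up 94.2% ± 0.788 of the transcripts of Plcb1 to Plcb4 in tuft-like and 51.5% ± 7.38 in non-tuft-like mTEC, with Plcb4 next in each library but non-tuft-like library 3, where Plcb3 was (SD, n = 3). Trpm5 made up 98.2% ± 0.546 of the pair of calcium-activated channels Trpm4 and Trpm5 in tuft-like and 77.7% ± 0.485 in non-tuft-like mTEC (SD, n = 3). Itpr3 had the opposite pattern, with 36.4% ± 1.98 of the 3 IP3 receptor genes in tuft-like and 61.0% ± 5.21 in non-tuft-like mTEC (SD, n = 3). Itpr2, the type 2 receptor, was the most abundant in tuft-like mTEC, at a mean of 60.2% of the family against 31.8% in non-tuft-like mTEC. Tas1r3 made up 68.8% ± 10.6 of the 3 taste receptor subunit genes in tuft-like and 54.2% ± 2.40 in non-tuft-like mTEC (SD, n = 3). This difference of 14.6 points was 9.05 points without tuft-like library 3. None of the 7 shares overlapped between the groups. Each had an exact two-sided permutation p of 0.10, the smallest that 3 against 3 libraries allow, without adjustment over the 7.

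**Figure D2:**
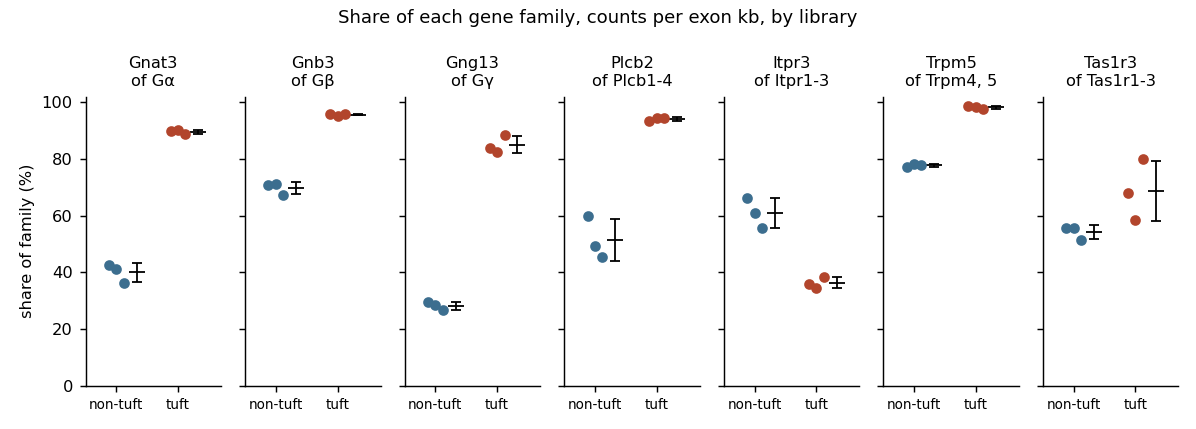
Share of each cascade gene among the transcripts of its family within a library, in percent, from counts per exon kilobase. Each point is 1 library of tuft-like or non-tuft-like mTEC. The share of Itpr3 was lower in the tuft-like libraries, at 36.4% on average, and the other 6 shares were higher.

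Of 89 further genes of the pathway, placed in 10 lists by function, 88 were tested and Gng8 was not. Of these, 6 rose, 2 fell and 80 were not called, with a median log2 fold change of -0.03 beside 0.02 over all genes tested. Called genes of both directions made up 9.09% of the lists. Among all 32496 genes tested 687 were called, 1.16% higher and 0.951% lower. The lists were drawn up with earlier results of these data known, so their share of called genes is a description only. Among 15 other alpha subunits only Gna14, of the Gq class, rose, from 14.8 ± 2.77 to 67.8 ± 22.4 CPM (SD, n = 3), with a log2 fold change of 2.20 and an FDR of 0.00998 by edgeR. That call was lost without non-tuft-like library 2 (FDR 0.0510). Among 4 other beta subunits Gnb4 fell, from 131.4, 144.3 and 116.4 CPM in the non-tuft-like to 23.9, 28.9 and 34.4 CPM in the tuft-like libraries. Its groups were well separated, and its log2 fold change was -2.17 with an FDR of 0.00276 by edgeR. None of the 10 other gamma subunits tested was called in either direction, and none had an unadjusted p under 0.05 by edgeR.

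Among 11 other phospholipase C enzymes Plcg2, which acts downstream of tyrosine kinases, rose and Plcd1 fell. Plcg2 had 58.4, 56.1 and 61.2 CPM in the non-tuft-like and 350.4, 555.7 and 426.5 CPM in the tuft-like libraries. These groups were far apart, with a log2 fold change of 2.92 and an FDR of 0.000886 by edgeR. Plcd1 went from 40.5 ± 3.01 to 11.4 ± 2.07 CPM (SD, n = 3), with a log2 fold change of -1.82 and an FDR of 0.0276 by edgeR, but this call was kept only without tuft-like library 3 and lost without any of the other 5 libraries, with an FDR of up to 0.161.

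Among 13 other genes of the calcium store only Itpr2 rose. It had 162.6, 189.2 and 175.7 CPM in the non-tuft-like and 533.2, 820.5 and 1082 CPM in the tuft-like libraries. The groups were separate, with a log2 fold change of 2.21 (SE 0.35) and an FDR of 0.00814 by edgeR. The call was lost without non-tuft-like library 1 or non-tuft-like library 2, with an FDR of up to 0.0692. The most abundant gene of this list was Atp2a3, the SERCA3 pump that refills the store, with 1980, 1527 and 1063 CPM in the non-tuft-like and 4013, 5423 and 6167 CPM in the tuft-like libraries. Its libraries did not overlap, but with a log2 fold change of 1.77 and an FDR of 0.0815 by edgeR it did not pass the test. It was called in 10 of the 15 alternatives.

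Among 6 genes of excitation and ATP release, 2 rose, and the median log2 fold change was 1.67. Calhm3, a subunit of the channel through which type II taste cells release ATP, had 24.5, 26.5 and 8.90 CPM in the non-tuft-like and 202.5, 283.0 and 368.0 CPM in the tuft-like libraries. The tuft-like libraries were all higher by far, with a log2 fold change of 3.83 and an FDR of 0.00172 by edgeR. Its partner Calhm1 had 1.45, 0.106 and 2.61 CPM in the non-tuft-like and 15.8, 19.6 and 41.9 CPM in the tuft-like libraries, and its FDR was 0.0676 by edgeR, with a call in 4 of the 15 alternatives. The sodium channel gene Scn2a rose from 28.1 ± 10.9 to 103.4 ± 16.3 CPM (SD, n = 3), with a log2 fold change of 1.88 and an FDR of 0.0194 by edgeR. That call was lost without non-tuft-like library 1, non-tuft-like library 2 or tuft-like library 2, with an FDR of up to 0.0961.

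Of 9 genes of feedback and the cyclic nucleotide arm, only Rgs21 was called. It encodes a regulator of G protein signalling known from taste cells, and had 24.5, 32.1 and 17.9 CPM in the non-tuft-like and 147.5, 206.8 and 327.0 CPM in the tuft-like libraries. The groups were separate, with a log2 fold change of 3.19 and an FDR of 0.00172 by edgeR, and the call held without each single library. None of 7 other TRPM channels, none of 7 ATP receptors and ATP-degrading enzymes and none of 6 other class C receptors was called by edgeR, of which 0, 3 and 0 had an unadjusted p under 0.05. Casr, the calcium-sensing receptor and the most abundant of these class C receptors, had 140.3, 117.5 and 95.0 CPM in the non-tuft-like and 89.6, 139.3 and 42.8 CPM in the tuft-like libraries, which overlapped.

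**Figure D3:**
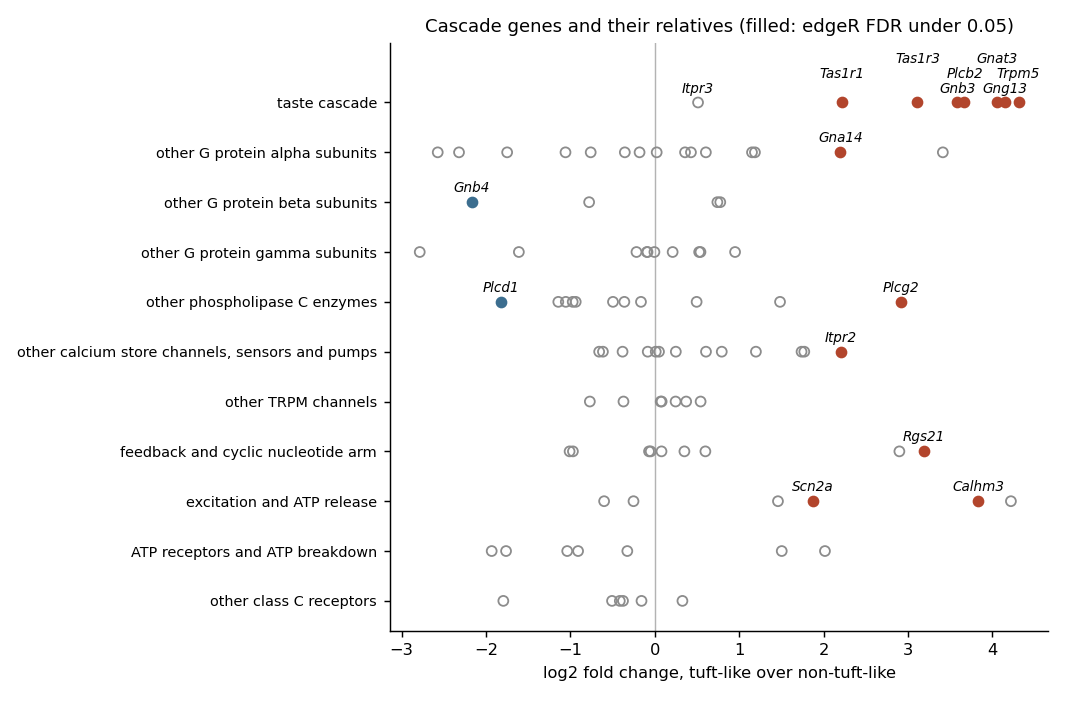
Log2 fold change, tuft-like over non-tuft-like, of the 8 tested cascade genes and the 88 tested pathway genes, 1 row per list and 1 point per gene. Filled points passed an FDR of 0.05 by edgeR and are named, together with Itpr3, which did not. The 7 called cascade genes lie between 2.22 and 4.31, while the points of the other rows lie on both sides of 0, with a median of -0.03.

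The 7 called genes were not absent from non-tuft-like mTEC. As a percentage of the tuft-like mean, the non-tuft-like mean was 5.04% for Trpm5, 5.62% for Gng13, 6.01% for Gnat3, 7.86% for Plcb2, 8.34% for Gnb3, 11.6% for Tas1r3 and 21.4% for Tas1r1, beside 70.1% for Itpr3. In each of the 6 libraries all 8 genes exceeded the 99th percentile of olfactory receptors. Among the tuft cell markers given here the same percentage ran from 1.44% for Sh2d6, which encodes an SH2 domain protein, to 22.5% for Pou2f3, with 1.80% for Dclk1, and the 7 called cascade genes lay within that range. The part of tuft cells left in the non-tuft-like gate in these levels was not tested.

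**Figure D4:**
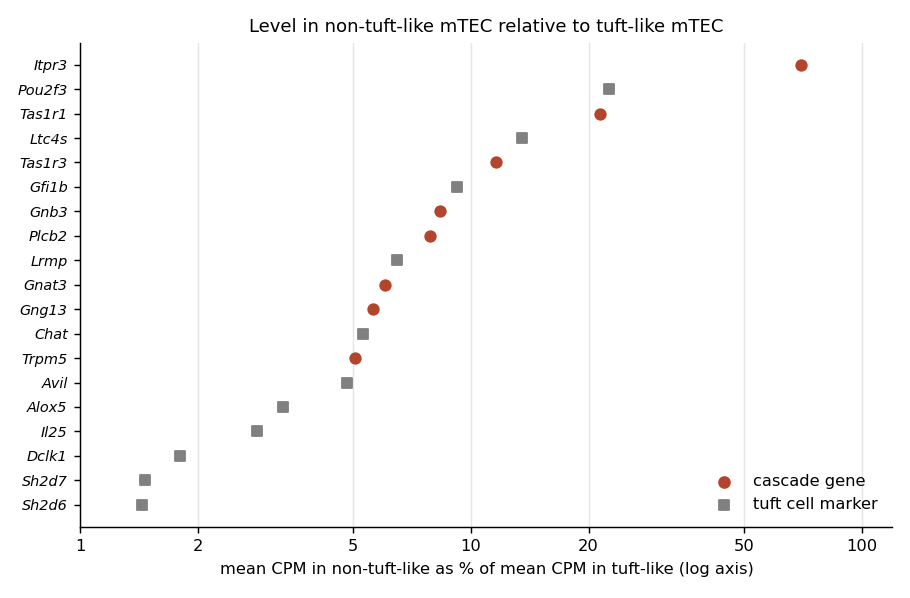
Mean level in non-tuft-like mTEC as a percentage of the mean level in tuft-like mTEC, for the 8 tested cascade genes and tuft cell markers, on a log axis, which cannot show Tas1r2 with its 0 counts in non-tuft-like mTEC. Each point is 1 gene. Itpr3 lies at 70.1%, and the 7 called cascade genes lie between 5.04% and 21.4%, within the range of the plotted markers from 1.44% to 22.5%.

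Several cascade genes are also used by other cell types, whose markers were therefore counted. Gnb3 is known from cone photoreceptors, and none of 8 cone markers was called, with sums of at most 32.8 CPM per library. None of 6 olfactory neuron markers was called, and no gene of either list had an unadjusted p under 0.05 by edgeR. Of 8 markers of taste cells of types I and III, none rose and Slc1a3, a glutamate transporter, fell, with a median of -0.76 on the log2 scale and Snap25 the most abundant. The study gated tuft-like mTEC among EpCAM1-positive cells that lack CD45, a gate that takes out blood cells, although the labels do not state it for these libraries. Kit also marks mast cells, and none of the 5 tested mast cell markers was called. The mast cell list summed to 3.82, 3.15 and 11.8 CPM in non-tuft-like and 14.6, 10.4 and 0.0828 CPM in tuft-like libraries 1 to 3. On the log2 scale its median was 0.64. The protease gene Cpa3, its most abundant per kilobase in tuft-like mTEC, had 5.21, 3.24 and 0 CPM in tuft-like libraries 1 to 3. In non-tuft-like libraries 1 to 3 Cpa3 had 0.568, 0.277 and 1.88 CPM. An unadjusted p under 0.05 by edgeR was seen for 1 of these mast cell genes, Tpsb2, which was lower in the tuft-like libraries. Whether mast cells added to the cascade levels was not tested.

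Markers of mature mTEC moved in the other direction. Of 7 such genes 5 fell, and they summed to 7920, 8224 and 6590 CPM in the non-tuft-like and 1119, 1447 and 2506 CPM in the tuft-like libraries, with the class II gene H2-Ab1 the most abundant. The calls of H2-Ab1 and H2-Aa were kept in 2 of the 6 settings that leave out a library, and those of Aire, Fezf2 and Cd40 in all 6. Aire, the regulator of tissue-restricted genes, had 341.2, 299.2 and 235.4 CPM in the non-tuft-like and 19.3, 23.4 and 18.7 CPM in the tuft-like libraries. Of 6 markers of thymic epithelium Foxn1 and Krt14 fell, while Epcam, Krt8 and Krt18 had log2 fold changes of 0.10, 0.67 and 1.04 and Krt5 one of -3.02 and were not called. None of 7 thymocyte and none of 5 fibroblast markers was called or had an unadjusted p under 0.05 by edgeR, and of 6 macrophage and dendritic cell markers only Cd68 was, with a lower level. Of 4 B cell markers Cd79b rose while Cd79a and Ms4a1 were at most 8.76 CPM in the tuft-like libraries, and of 4 endothelial markers Tek rose. The median log2 fold change was 1.78 for the endothelial and 1.17 for the fibroblast list. It was 0.18, -0.56 and -0.13 for the thymocyte, the macrophage and dendritic cell and the B cell list. Of the 4 endothelial genes 2 had an unadjusted p under 0.05 by edgeR. The endothelial list summed to 34.8, 58.8 and 32.96 CPM in the non-tuft-like and 327.8, 165.2 and 230.7 CPM in the tuft-like libraries, and Tek was its most abundant gene. The part of these cell types in the cascade levels was not tested.

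The promoters of the cascade genes were read to see what the genes that rose together share in sequence. RefSeq windows of 300 bases (GRCm38.p6, 250 before to 50 after the gene start) were matched for 8 of the 9 genes, all but Gnb3. Pou2f3 is a POU factor, and POU factors are known to bind the octamer ATGCAAAT. The 250 bases before the start are shown for Trpm5 (chr7:143094643-143094892, minus strand), the channel at the end of the cascade, for Gnat3 (chr5:17962320-17962569, plus strand), the most abundant per kilobase, for Itpr3 (chr17:27057054-27057303, plus strand), the gene that did not pass the test, and for Rgs21 (chr1:144567668-144567917, minus strand), a called gene outside the cascade. Capitals mark ATGCAAAT or its first 6 letters ATGCAA on either strand.
Trpm5: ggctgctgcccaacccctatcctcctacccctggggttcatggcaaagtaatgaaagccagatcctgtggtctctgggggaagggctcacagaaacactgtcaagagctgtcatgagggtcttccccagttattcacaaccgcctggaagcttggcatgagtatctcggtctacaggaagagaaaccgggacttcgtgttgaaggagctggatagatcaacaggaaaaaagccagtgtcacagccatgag
Gnat3: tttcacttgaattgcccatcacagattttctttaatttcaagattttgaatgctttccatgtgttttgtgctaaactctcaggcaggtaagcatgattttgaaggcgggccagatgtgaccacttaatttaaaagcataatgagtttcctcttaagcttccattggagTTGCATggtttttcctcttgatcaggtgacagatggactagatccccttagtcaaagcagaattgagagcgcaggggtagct
Itpr3: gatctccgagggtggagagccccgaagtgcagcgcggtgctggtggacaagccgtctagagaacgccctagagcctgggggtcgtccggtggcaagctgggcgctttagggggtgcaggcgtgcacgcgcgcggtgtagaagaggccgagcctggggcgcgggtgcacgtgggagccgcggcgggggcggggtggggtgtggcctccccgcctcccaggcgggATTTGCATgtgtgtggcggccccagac
Rgs21: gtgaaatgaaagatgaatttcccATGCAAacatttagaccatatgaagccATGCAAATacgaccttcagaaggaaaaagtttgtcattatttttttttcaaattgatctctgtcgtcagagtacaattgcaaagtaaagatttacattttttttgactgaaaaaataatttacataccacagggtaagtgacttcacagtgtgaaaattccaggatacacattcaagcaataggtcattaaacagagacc

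Searched on both strands, ATGCAAAT was found in 1.74% of 32851 such windows. Among the 8 cascade genes it was found only in Itpr3, where it reads ATTTGCAT and begins 27 bases before the start, and among the 6 called pathway genes with a window, which leaves out Gnb4 and Calhm3, only in Rgs21, where it begins 200 bases before the start. The shorter ATGCAA, which every ATGCAAAT contains, was found in 10.7% of all windows and in Gnat3, Itpr3 and Tas1r2. In Gnat3 it reads TTGCAT and begins 82 bases before the start. The E-box CAGCTG was found in Tas1r1 and Tas1r3 and in 16.3% of all windows, and TATAAA in no cascade gene and in 13.6% of all windows. The windows of Trpm5, Plcb2 and Gng13 held none of the 4 motifs. A match is a description of these letters and not of a bound site.

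Last, the genes most like the cascade were sought among 12337 tested genes whose group with the higher mean reached 10 CPM. Likeness was the root mean square difference, over the 6 libraries, between a gene's centred log2 CPM and the mean profile of Gnat3, Gnb3, Gng13, Plcb2, Itpr3 and Trpm5. The nearest was Matk, a tyrosine kinase gene, at 0.129. Among the next were Bex4 at 0.164, Tmem245 at 0.189, Rgs21 at 0.192, Aldh2 at 0.207, Tmem45b at 0.209 and Cd79b at 0.226. Of the genes that form the profile, Gnb3 lay at 0.129 and Plcb2 at 0.175, Gnat3, Gng13 and Trpm5 lay at 0.388, 0.405 and 0.499, and Itpr3 lay at 1.45. Itpr3, with a log2 fold change of 0.51, was part of the profile and made its difference between the groups smaller. Genes with a smaller rise than Gng13 or Trpm5 could therefore score nearer than these did. The measure is a description over 6 libraries in 2 groups, and a gene with the same difference between the groups scores as near whatever it does.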

How the data were processed

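The authors used Trimmomatic 0.36 for trimming, STAR 2.7.3a for alignment to mm10 and HTSeq 0.12.4 for counting (intersection-nonempty). The deposited values are whole-number counts per gene, not normalized. The strand setting and annotation release are not given in the sources used here. GENCODE M21 names were matched to 99.7% of gene rows, and 147 rows had none. The 92 ERCC rows, all at 0, and 5 rows naming no gene stayed out; reads on no feature made up 19.7% to 61.6% and ambiguous reads 0.715% to 2.32%.

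R 4.3.3 with edgeR 4.0.16 and limma 3.58.1 was used, with DESeq2 1.42.0 as an alternative. Genes passed filterByExpr (minimum count 10, minimum total 15), were scaled by TMM and tested by edgeR's quasi-likelihood test (Benjamini-Hochberg, FDR 0.05), without covariates. Scripts were tested on simulated data. Named genes were all members, called pathway genes, the leading gene of each family, deciding markers and the 8 most similar genes. Some genes so named are not reported here. Members and lists were chosen with earlier results of these data known. Per-kilobase levels used the merged exons of each gene. Alternatives covered scaling, filter, test, background subtraction, replicate block, exon length and each library left out.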

Additional observations from a re-analysis of the deposited data

How the results depend on the processing

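The count of 7 called cascade genes was unchanged under RLE size factors, library size only, DESeq2, limma voom, the likelihood ratio test, no filter, a filter of 1 CPM in 3 libraries and background subtraction, and was 6 to 7 when each library was left out. No direction reversed. The 8 called pathway genes became 17 with DESeq2 and 13 with the likelihood ratio test, and ranged from 4 to 10 with libraries left out, with 5 without non-tuft-like library 1 and 4 without non-tuft-like library 2. Without division by exon length, the difference in family share was 55.8 points for Gnat3, 40.9 for Gnb3, 46.8 for Gng13 and 29.7 for Trpm5, in place of 49.7, 25.9, 56.7 and 20.5 points. Over all genes, 687 calls became 1904 with DESeq2, 1236 with the likelihood ratio test, 1127 without the filter, 1058 with background subtracted and 1045 with library size only, and fell to 379 without non-tuft-like library 2 and 376 without tuft-like library 2. The cause was not tested.

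Libraries share replicate numbers across the groups, and the sources used here do not say whether these numbers pair the libraries. The deviations of same-numbered libraries from their group means correlated at -0.117, -0.0462 and -0.290. With 3 libraries in a group, such correlations cannot decide whether the libraries were paired. With the replicate number as a block, 6 cascade genes and 8 pathway genes were called and 737 genes in all, with Gnb3 at an FDR of 0.0517 by edgeR (log2 fold change 3.57). Of the pathway calls, Plcd1 was lost (FDR 0.0503) and Calhm1 gained (FDR 0.0192) under the block by edgeR. No library correlated best with its own number. For Tas1r2 a count of 0 allows a level of up to 3 counts, which is 0.0921, 0.0620 and 0.105 CPM in non-tuft-like libraries 1 to 3. The ratios given for Tas1r2 used 3 counts over the whole non-tuft-like group, which is 0.0272 CPM.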
